A study of Schmidtea mediterranea with 64 samples.

Results

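The transcripts described here were present in whole planarians, scarce or unlisted in sorted stem cells, and lower after set1 knockdown. They comprise 148 of the 28173 transcript IDs in the series and were selected on 4 values. Each had a mean of 1 to 50 RPKM (reads per kilobase of transcript, scaled to the size of the library) in the whole-worm libraries of both experiments. Each was unlisted, or averaged below 1 RPKM, in the stem cell libraries of the mll1/2 experiment. Each had a change of -0.6 or less on the log2(RPKM + 0.5) scale in set1(RNAi) whole worms at day 9, and a change between -0.4 and 0.4 in mll1/2(RNAi) whole worms at day 9. Change means the mean of 4 knockdown libraries minus the mean of 4 control libraries of the same day. The first 2 conditions alone held for 6369 transcripts, so 6221 others of like abundance serve for comparison, and all of these are called whole-worm-only transcripts for short.

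Set1 and MLL proteins are the catalytic subunits of related complexes that methylate lysine 4 of histone H3, a mark found at the start sites of active genes. Planarians keep a large pool of adult stem cells, the neoblasts, whose division supplies all differentiated tissues. The X1 fraction is the set of cells with a DNA content above that of resting cells, sorted after Hoechst staining, and consists largely of dividing neoblasts. A transcript found in whole worms but not in X1 cells is therefore usually one of differentiated cells or of the progeny on the way to them. In whole animals, fewer cells of a type and less RNA per cell cannot be told apart.

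Polyadenylated RNA was sequenced from adult Schmidtea mediterranea, as whole worms or X1 cells, in 64 libraries, with 4 libraries in each of 16 groups. The animals ingested bacteria that expressed double-stranded RNA. In the set1 experiment this was set1 dsRNA or the non-targeting control unc22, with libraries labelled day 6 or 9. In the mll1/2 experiment it was mll1/2 dsRNA or unc22, with libraries labelled day 9 or 12. Knockdown by feeding is systemic, so every tissue of the animal was exposed. The labels do not say whether the 4 libraries of a group came from separate cultures or pools of worms, and p-values measure only the spread between these libraries. Depth was 16411807 to 22510845 counted reads in a whole-worm library and 9499135 to 18276575 in an X1 library. The transcripts are given by ID because no names were paired with the IDs in the sources used here. The levels of set1 and mll1/2 themselves were not analysed here for the same reason.

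The 148 transcripts were mostly of low abundance and short. Their median level over the 16 set1 whole-worm libraries was 2.74 RPKM, within a range of 1.00 to 37.5 RPKM. The median of the other whole-worm-only transcripts there was 3.71 RPKM. These libraries include the set1(RNAi) libraries of day 9, in which the 148 were chosen to be low. Over the mll1/2 whole-worm libraries the medians were 3.72 RPKM for the 148 and 3.38 RPKM for the others. Of the 148, 54 averaged under 2 RPKM and 21 averaged 10 RPKM or more over the 16 set1 whole-worm libraries. The median length was 758.5 bases, against 1195 bases for the 6221 other whole-worm-only transcripts. Each was represented by 128 to 18294 reads in all over the 16 set1 whole-worm libraries, with a median of 637.5, and none of the 2368 values of a transcript in one of these libraries was 0.

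Summed over the 148 transcripts, the level separated every knockdown library from every control library of the set1 experiment on both days. At day 6 the unc22(RNAi) libraries summed to 945, 894, 915 and 902 RPKM (mean 914 ± 22.4, SD, n = 4). The set1(RNAi) libraries of that day summed to 705, 700, 677 and 689 RPKM (693 ± 12.6, SD, n = 4), or 75.8% of the control mean. At day 9 the controls summed to 1047, 1005, 970 and 958 RPKM (995 ± 40.0, SD, n = 4) and the set1(RNAi) libraries to 504, 493, 501 and 497 RPKM (499 ± 4.51, SD, n = 4), or 50.1% of the control mean. The day 9 values reflect how the transcripts were chosen and are a description. The day 6 libraries took no part in the change used for the choice, and entered it only through the mean level. In the mll1/2 experiment the same sum ranged from 1027 to 1260 RPKM over all 16 whole-worm libraries, and the knockdown and control libraries overlapped on both days. The choice bounded the mll1/2 change at day 9, so the overlap of that day is a description too. The highest was unc22(RNAi) replicate 1 of day 12, which stood apart from the other 3 controls of its group (1052 to 1084 RPKM). The library size used to scale it was 0.875 of its counted reads, beside 0.985, 1.03 and 1.06 in those 3. A smaller size gives a higher RPKM for the same reads. Not every transcript was high in it: SMED30010415, named after its values were seen, was at 3.71 RPKM there and 19.3 to 24.7 RPKM in those 3. What set this library apart was not tested.

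**Figure D1:**
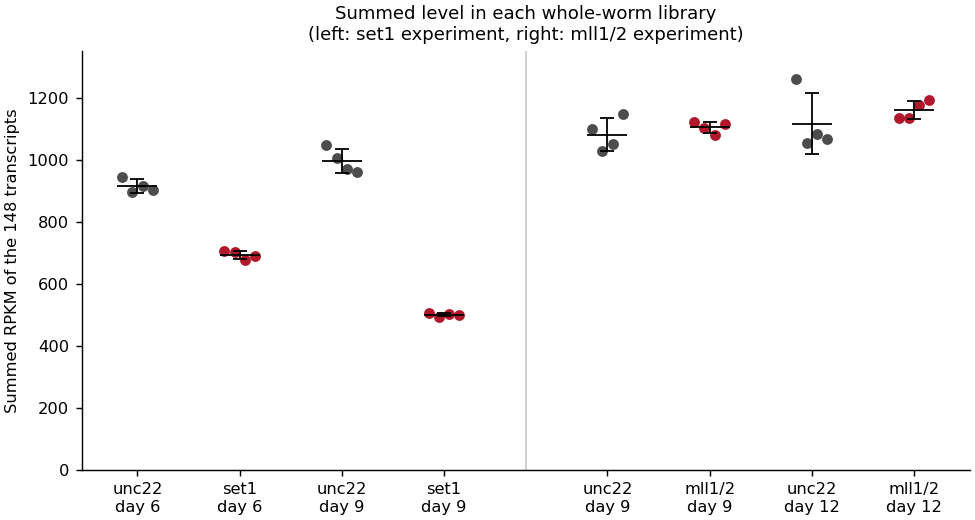
Summed RPKM of the 148 transcripts (y axis) in each whole-worm library (points), with the mean and SD of the 4 libraries of a group (bar and whiskers). In the set1 experiment the knockdown libraries sat at 677 to 705 at day 6 and 493 to 504 at day 9, below all controls. In the mll1/2 experiment the groups overlapped. The day 9 changes of both experiments were used for the choice.

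At day 9, the time point used for the choice, the changes ran from -3.35 to -0.60 with a median of -0.76 (log2), and 31 transcripts were at -1 or less. The 4 set1(RNAi) libraries lay below all 4 controls for 136 transcripts, against 20.3% of all 19655 transcripts tested. The limma fit called 147 of the 148 lower, against 22.9% of all tested. Neither count is evidence about the transcripts, since this contrast selected them. The members nearest the threshold were SMED30027872, at -0.60 (3.42 RPKM in controls and 2.08 RPKM after knockdown), and SMED30028305, at -0.61. Just outside it lay SMED30025435, at -0.60 (2.20 and 1.28 RPKM), and SMED30003630, at -0.59.

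At day 6, 77 of the 148 transcripts (52.0%) were down-regulated in set1(RNAi) worms and 1 was up-regulated. The day 6 libraries entered the choice only through the mean level over all 16 libraries. High day 6 controls could thus help a scarce transcript to reach the mean of 1 RPKM. Some of the 77, such as SMED30029032 and SMED30018896, reached it only through their controls. The test was limma's moderated test on log2(RPKM + 0.5), two-sided, with Benjamini-Hochberg adjustment over 19655 transcripts and an adjusted p under 0.05. The background was 10.6% of all tested transcripts lower and 5.91% higher (2085 and 1162 transcripts). Median scaling of the libraries turned that split to 1414 lower and 2348 higher, and quantile normalisation gave 1885 and 1661, while 71 and 74 of the 148 were lower. Among the 6221 other whole-worm-only transcripts 307 were lower (4.93%) and 320 higher. The median change of the 148 was -0.41, beside 0.03 for the other whole-worm-only transcripts and 0.00 for all tested. Values below 0 were seen for 140 of the 148, with 34 at -0.6 or less and 10 at -1 or less. All 4 set1(RNAi) libraries lay below all 4 controls for 73 transcripts, against 12.2% of all tested, and above them for 3, against 8.01%. The called falls ranged from -0.26 to -1.54, and 61 of the 77 were called lower under each of the 17 alternative settings tried.

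**Figure D2:**
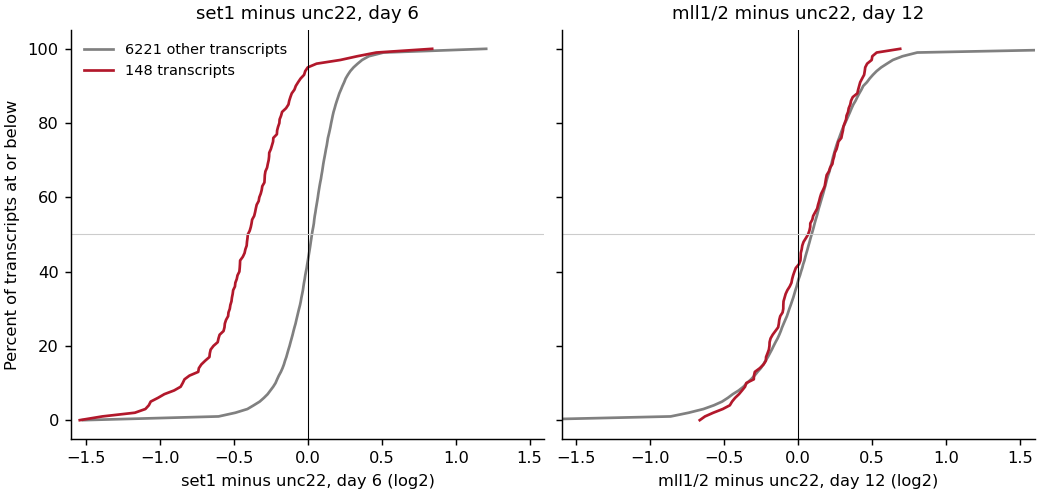
Cumulative percent of transcripts (y axis) at or below a log2 change (x axis, drawn from -1.6 to 1.6) for the 148 transcripts (red) and the 6221 other whole-worm-only transcripts (grey). At set1 day 6 the medians were -0.41 and 0.03; at mll1/2 day 12 they were 0.07 and 0.09 and the curves ran close together.

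The change deepened between the time points for most of the 148. The value at day 9 was lower than at day 6 for 139 of them, and the day 6 change was a median 52.5% of the day 9 change. Because day 9 was the selecting contrast, part of this difference is fixed by the choice, and no test was made of it. In the control animals the median change from day 6 to day 9 was 0.06, and in set1(RNAi) animals it was -0.32 (log2). For the other whole-worm-only transcripts these medians were -0.01 and 0.04. The choice asked for day 9 set1(RNAi) values well below the day 9 controls, so both medians of the 148 are a description only. The order of the transcripts was only loosely shared between the days, with a Spearman rho of 0.31 over the 148 transcripts, which share the same libraries.

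**Figure D3:**
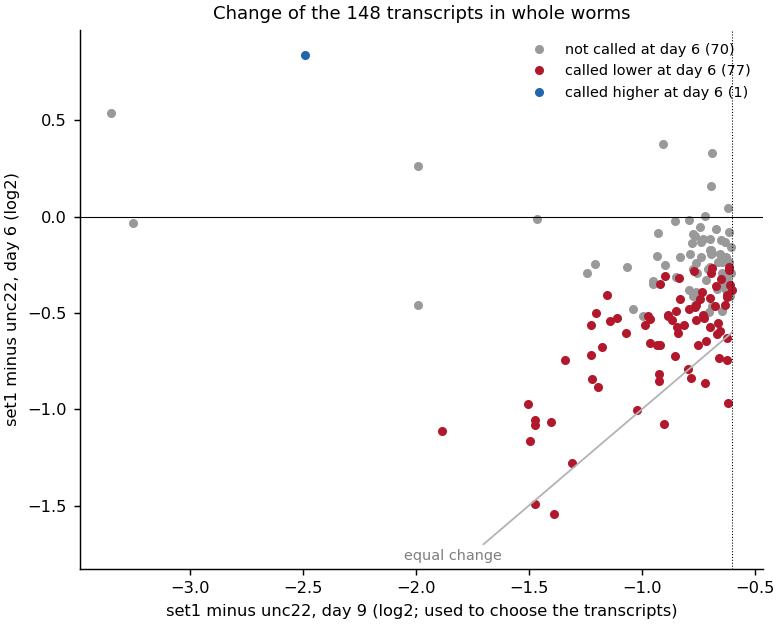
Log2 change in set1(RNAi) whole worms at day 9 (x axis, used for the choice) and at day 6 (y axis) for each of the 148 transcripts (points), coloured by the day 6 call. Most points lie between 0 and the line of equal change; the transcripts farthest left, at -3.35 to -1.99, lie near or above 0 at day 6, except for SMED30027157 at -0.46.

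The 6 transcripts with the largest day 6 falls had changes of -1.54 to -1.08 on that day and of -1.88 to -1.31 at day 9. SMED30029032 had 2.20, 1.38, 2.01 and 1.66 RPKM in the day 6 controls and 0.332, 0.291, 0.351 and 0.180 RPKM in the day 6 set1(RNAi) libraries. It fell by 1.54 (log2, SE 0.19, limma adjusted p = 2.91e-05), and its day 9 change was -1.39. The groups did not overlap on either day. The mean of SMED30029032 over all set1 whole-worm libraries was 1.05 RPKM, and its highest set1(RNAi) value was 0.594 RPKM, at day 9. It thus reached the required mean of 1 RPKM only through its control libraries, which favoured the inclusion of a fall.

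SMED30016405 measured 5.05, 5.35, 5.09 and 4.96 RPKM in day 6 controls and 2.45, 1.86, 1.52 and 0.625 RPKM after set1 knockdown. Its log2 change was -1.49 (SE 0.21, limma adjusted p = 0.000137). SMED30033240 was at 14.9, 14.0, 14.3 and 13.2 RPKM in day 6 controls and at 7.53, 4.68, 5.31 and 4.94 RPKM in set1(RNAi) worms. It fell by 1.28 (SE 0.12, limma adjusted p = 1.80e-06) and showed almost the same change, -1.31, at day 9.

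SMED30029796 changed by -1.16 (SE 0.19, limma adjusted p = 0.000376), from control values of 2.86 to 5.35 RPKM to values of 1.08 to 2.05 RPKM. SMED30018896 measured 2.94 to 3.47 RPKM in controls and 0.939 to 1.62 RPKM after knockdown, a change of -1.11 (SE 0.16, limma adjusted p = 0.000123). Its day 9 knockdown libraries were at 0.429 to 0.846 RPKM, and its knockdown libraries together averaged under 1 RPKM. Like SMED30029032, it thus reached the required mean only through its controls, which favoured the inclusion of a fall. SMED30007460 measured 2.54 to 3.52 RPKM in controls and 0.991 to 1.41 RPKM after knockdown, a change of -1.08 (SE 0.12, limma adjusted p = 8.08e-06). In all 6 the highest day 6 knockdown library was below the lowest control.

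The largest day 9 changes belonged to a different set, in which only SMED30018896 recurred. The controls of these other 5 transcripts were higher at day 9 than at day 6 and varied widely. SMED30002813 measured 33.8, 21.2, 11.5 and 14.4 RPKM in the day 9 controls and 1.52, 0.910, 2.20 and 1.09 RPKM in the day 9 set1(RNAi) libraries, a change of -3.35. At day 6 its controls were at 8.41, 9.19, 6.60 and 7.54 RPKM, and its knockdown libraries at 13.3, 14.7, 8.95 and 10.6 RPKM. The day 6 change was 0.54 (SE 0.26) and did not pass the test (limma adjusted p = 0.179).

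SMED30032218 showed the same arrangement, with 15.4, 12.2, 5.66 and 7.03 RPKM in day 9 controls and 0.655, 0.343, 0.464 and 0.715 RPKM in day 9 knockdown libraries. Its day 6 groups overlapped, and the day 6 change of -0.03 (SE 0.26, limma adjusted p = 0.951) took either sign under other settings. SMED30020397 was the 1 transcript up-regulated at day 6. Its day 6 controls measured 2.87, 2.35, 3.82 and 1.84 RPKM and its day 6 knockdown libraries 6.17, 4.40, 4.29 and 5.87 RPKM, all above the controls. The change was 0.84 (SE 0.25, limma adjusted p = 0.0258), and leaving out 1 library ended the call in 4 of 8 cases: without set1(RNAi) replicate 1 or 4, or unc22(RNAi) replicate 2 or 4, the change was 0.70 to 0.79 with an adjusted p of 0.0622 to 0.0816. At day 9 the same transcript was at 11.7, 7.65, 5.57 and 6.09 RPKM in controls and 0.898, 0.784, 1.75 and 0.490 RPKM after knockdown, a change of -2.49.

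SMED30030302 was more abundant, at 41.3, 32.7, 25.5 and 26.4 RPKM in day 9 controls and 6.39, 7.46, 9.40 and 6.69 RPKM after knockdown, a change of -1.99. At day 6 all 4 knockdown libraries (20.8 to 23.9 RPKM) were above all 4 controls (17.0 to 20.2 RPKM), but the change of 0.26 (SE 0.13) did not pass (limma adjusted p = 0.183). SMED30027157 had 15, 11.2, 9.91 and 10.3 RPKM in day 9 controls and 2.79, 2.11, 4.01 and 1.63 RPKM after knockdown. Its day 6 change of -0.46 (SE 0.21) did not pass either (limma adjusted p = 0.151).

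In these 5 transcripts unc22(RNAi) replicate 1 of day 9 was the highest of the 4 controls and replicate 3 the lowest. Their control means were higher at day 9 than at day 6 by 0.49 to 1.34 (log2), where the median of the 148 was 0.06 and 4 transcripts in all reached 0.6. In all 5 the day 9 knockdown libraries lay below the day 6 controls. The choice used the day 9 libraries of both groups, so high day 9 controls favoured these transcripts. What made the controls differ between days and replicates was not tested.

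**Figure D4:**
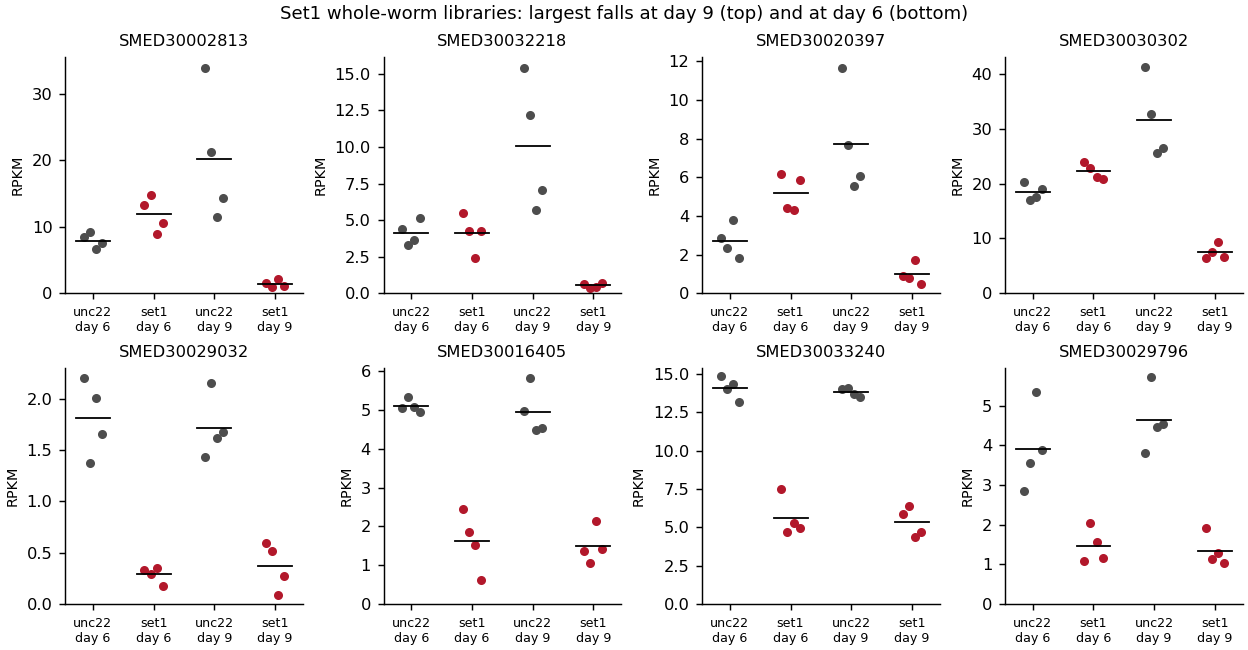
RPKM (y axis) in each set1 whole-worm library (points; black bar, mean of 4) for the 4 transcripts with the largest day 9 changes (top) and the 4 with the largest day 6 falls (bottom). In the top row the day 9 controls were high and scattered and the day 6 knockdown libraries lay above their controls or, for SMED30002813 in part and SMED30032218, among them; in the bottom row both days looked alike.

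At higher abundance smaller shifts were resolved, though not in every case. SMED30034570, with the highest mean of the 148 (37.5 RPKM), measured 42.2, 38.2, 37.8 and 40.1 RPKM in day 6 controls and 35.5, 38.0, 33.1 and 37.8 RPKM after knockdown, so that the groups overlapped. Its change was -0.13 (SE 0.06, limma adjusted p = 0.172), and at day 9 it was -0.63. SMED30021752 (28.9 RPKM) measured 37.5, 30.1, 35.1 and 32.7 RPKM in day 6 controls and 24.0, 25.3, 24.5 and 23.6 RPKM after knockdown, without overlap. It fell by 0.46 (SE 0.06, limma adjusted p = 2.85e-05). SMED30027088, one of the 3 with the largest positive day 6 values, overlapped between groups (2.11 to 2.81 against 1.26 to 2.37 RPKM), and its change of 0.38 (SE 0.24) did not pass (limma adjusted p = 0.327).

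The 77 called at day 6 and the 70 not called differed in level, in length and in the day 6 change, on which the call itself rests. The called transcripts had a median of 3.52 RPKM and 1095 bases, and those not called 2.00 RPKM and 607.5 bases. The median day 6 change was -0.56 in the called and -0.23 in those not called, of which 63 were below 0. The day 9 medians were -0.84 and -0.74. By level alone the median day 6 change was -0.38 for the 54 transcripts of 1 to 2 RPKM, -0.42 for the 48 of 2 to 5 RPKM and -0.42 for the 46 above that.

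Knockdown of mll1/2 at day 12, whose libraries entered the choice only through the mean level, left few calls among the 148. By limma 2 were lower and 3 higher, beside backgrounds of 3.35% lower and 2.57% higher over 18443 transcripts. With the replicate number as a block 2 were lower and 2 higher. These small counts rested on single libraries. Of the lower ones 1 was left without mll1/2(RNAi) replicate 1 or 2, 0 without mll1/2(RNAi) replicate 3 or 4 or unc22(RNAi) replicate 2 or 3, and 4 were called without unc22(RNAi) replicate 4. Of the higher ones 0 were left when mll1/2(RNAi) replicate 3 was omitted, 1 when mll1/2(RNAi) replicate 1, 2 or 4 or unc22(RNAi) replicate 3 was, and 6 were called when unc22(RNAi) replicate 1 was. Weighting the libraries by their spread gave 14 lower and 29 higher. Over all tested transcripts the split was 617 lower and 474 higher, and 688 and 274 with median scaling. The median change was 0.07, against 0.09 for the other whole-worm-only transcripts. All 4 knockdown libraries were above all 4 controls for 12 of the 148 (7.94% of all tested) and below them for 7 (6.93%). At day 9, where the choice bounded the change, 1 transcript was called higher (4.01% of all tested).

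The 5 transcripts called at day 12 are named because they are few. Of these, SMED30032625 had the largest fall by the fixed rule, and the other 4 were picked after their values were seen. SMED30032625 measured 1.67, 1.73, 1.81 and 1.70 RPKM in controls and 0.940, 1.05, 0.846 and 0.861 RPKM after mll1/2 knockdown, a change of -0.65 (SE 0.16, limma adjusted p = 0.0289, and 0.0395 with the block). Leaving out mll1/2(RNAi) replicate 1, 3 or 4, or unc22(RNAi) replicate 2 or 3, moved its adjusted p to between 0.0505 and 0.0882. SMED30006403 was lower as well, with 2.96 to 3.46 RPKM in controls, 1.65 to 2.26 RPKM after knockdown and a change of -0.61 (limma adjusted p = 0.0348).

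SMED30008102 was higher after mll1/2 knockdown, at 19.0, 19.5, 20.2 and 21.0 RPKM against 11.6, 13.5, 15.9 and 17.2 RPKM in controls. Its change was 0.46 (SE 0.11, limma adjusted p = 0.0244), whereas in set1(RNAi) worms at day 6 it fell by 0.53 (limma adjusted p = 0.000220). SMED30020268 also moved in opposite directions, by 0.41 at mll1/2 day 12 (limma adjusted p = 0.0347, but 0.0716 with the block) and by -0.28 at set1 day 6 (limma adjusted p = 0.00481). SMED30025924 was higher by 0.45 (limma adjusted p = 0.0332, but 0.0524 with the block). The difference between the 2 knockdowns was not tested, since the tables were normalised separately.

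The other extreme values at day 12 did not pass. SMED30027157 changed by -0.67 (SE 0.29, limma adjusted p = 0.188), with 1.54 to 3.33 RPKM after knockdown and 2.95 to 5.30 RPKM in controls. SMED30010231 changed by 0.69 (SE 0.26, limma adjusted p = 0.124), at 12.9, 17.7, 12.6 and 16.7 RPKM against 13.0, 10.5, 6.72 and 6.99 RPKM. SMED30012916 changed by 0.56 (SE 0.24, limma adjusted p = 0.174), at 2.31 to 2.76 RPKM against 0.667 to 3.08 RPKM. In each of the last 2 a control library overlapped the knockdown libraries.

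The X1 libraries of the set1 experiment were not used for the choice. The sample labels assign their table to X1 cells, but its columns are spelled like the whole-worm titles. As labelled, they qualify the label of whole-worm-only for some of the 148. In the mll1/2 X1 libraries 25 transcripts were unlisted and the other 123 had a median of 0.178 RPKM. In the set1 X1 libraries 85 were unlisted and 63 were listed, at a median of 0.533 RPKM and up to 2.39 RPKM, and 16 averaged 1 RPKM or more. The median X1 level of the 63 was 9.13% of the whole-worm level in unc22(RNAi) at day 9, on tables that were normalised separately. For 6 of them it was at least 50%, and for SMED30032128 and SMED30032692 the X1 mean was the higher value.

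Among the 16 transcripts with enough signal to be tested in X1 cells, the responses went both ways. They passed a filter of 1 RPKM on the mean of 16 libraries, which a high value in 1 group can help to meet, so the counts of calls are shaped by it. At day 6, 3 were lower (background 13.2% of 13503 tested) and 0 higher (background 6.64%) by limma, with 2 higher at an unadjusted p under 0.05 and 0 higher by voom. Without set1(RNAi) library d 2 were called higher, and without unc22(RNAi) library d 1 was. At day 9, 3 were lower (background 22.2%) and 4 higher (background 18%). The change at day 9 minus that at day 6 was higher for 1 transcript (background 2.31%) and lower for 0 (background 3.49%), with 1 lower at an unadjusted p under 0.05 and 0 by voom. Median scaling turned the split of all tested X1 transcripts from 2992 lower and 2429 higher to 2327 and 2934 at day 9, and from 471 and 312 to 222 and 266 for the difference between days.

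The 3 that fell in X1 cells fell on both days, and 2 of them were among the 6 largest day 6 falls in whole worms. All 3 belonged to the 6 whose X1 level was at least 50% of the whole-worm level in day 9 controls. The label of whole-worm-only therefore holds poorly for them in the set1 experiment. Each of the 3 averaged over 1 RPKM with any 1 of the 4 groups left out. In the set1(RNAi) X1 libraries alone, SMED30016405 averaged 0.613 RPKM and SMED30029796 0.476 RPKM, beside 2.94 and 2.59 RPKM in the unc22(RNAi) libraries. These 2 thus passed the filter only through their controls, whereas SMED30032128 averaged 1.54 RPKM in the set1(RNAi) libraries. In the fit without the filter, these 3 had day 6 limma adjusted p-values of 0.00143, 0.00339 and 0.00544. SMED30016405 measured 3.40, 3.26, 3.31 and 2.34 RPKM in the day 6 X1 controls and 0.692, 0.192, 0.820 and 1.54 RPKM in set1(RNAi) X1 cells. Its changes were -1.54 at day 6 (SE 0.29, limma adjusted p = 0.00114) and -1.85 at day 9 (SE 0.29, limma adjusted p = 6.23e-05). SMED30029796 measured 2.64, 1.90, 3.31 and 2.02 RPKM in day 6 X1 controls and 1.08, 0, 0.574 and 0.717 RPKM after knockdown.

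The changes of SMED30029796 were -1.53 (SE 0.32, limma adjusted p = 0.00289) at day 6 and -1.95 (SE 0.32, limma adjusted p = 0.000121) at day 9. Both transcripts were unlisted in the mll1/2 X1 libraries, and they measured 0.386 to 2.97 RPKM in the whole-worm controls of that experiment beside 2.86 to 5.84 RPKM in those of the set1 experiment, on separately normalised tables. The third, SMED30032128, was named after its values were seen and changed by -1.06 at day 6 and -0.68 at day 9 (limma adjusted p = 0.00359 and 0.0254).

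The 4 that rose in X1 cells at day 9 had whole-worm changes of -1.20 to -0.65 on the same day, in the contrast that chose them. Each of the 4 passed the filter only through the group where it was high, since the 12 libraries outside set1(RNAi) day 9 averaged 0.639 RPKM for SMED30005031, 0.804 for SMED30018398, 0.909 for SMED30013071 and 0.994 for SMED30029583. The count of 4 is therefore no support for a rise among the 148. In the fit without the filter, over all listed transcripts, the same 4 had day 9 limma adjusted p-values of 2.40e-05, 0.000861, 0.00133 and 0.0244. SMED30005031 measured 0.215, 0.256, 0 and 0.448 RPKM in the day 9 X1 controls and 2.37, 3.11, 2.92 and 1.67 RPKM in set1(RNAi) X1 cells. Its X1 change was 2.06 (SE 0.29, limma adjusted p = 2.97e-05) at day 9 and -0.14 (SE 0.29, limma adjusted p = 0.774) at day 6, and the values at the 2 days differed by 2.19 (SE 0.42, limma adjusted p = 0.00613, and 0.00583 in the fit without the filter). In whole worms it fell by 0.60 at day 6 (limma adjusted p = 0.0199), and this call was lost without set1(RNAi) replicate 1 or unc22(RNAi) replicate 1 or 3 (adjusted p of 0.0534 to 0.0744).

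SMED30018398 measured 0.397, 0.237, 0.452 and 0.827 RPKM in day 9 X1 controls and 1.37, 2.19, 0.922 and 2.14 RPKM after knockdown, a rise of 1.13 (SE 0.24, limma adjusted p = 0.00116). The whole-worm libraries held far more of it, at 23.6 to 25.5 RPKM in day 6 controls, and it fell by 0.50 there (SE 0.09, limma adjusted p = 0.000675). The other 2, SMED30013071 (change 1.11, limma adjusted p = 0.00149) and SMED30029583 (change 0.88, limma adjusted p = 0.0249), were named after their values were seen.

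**Figure D5:**
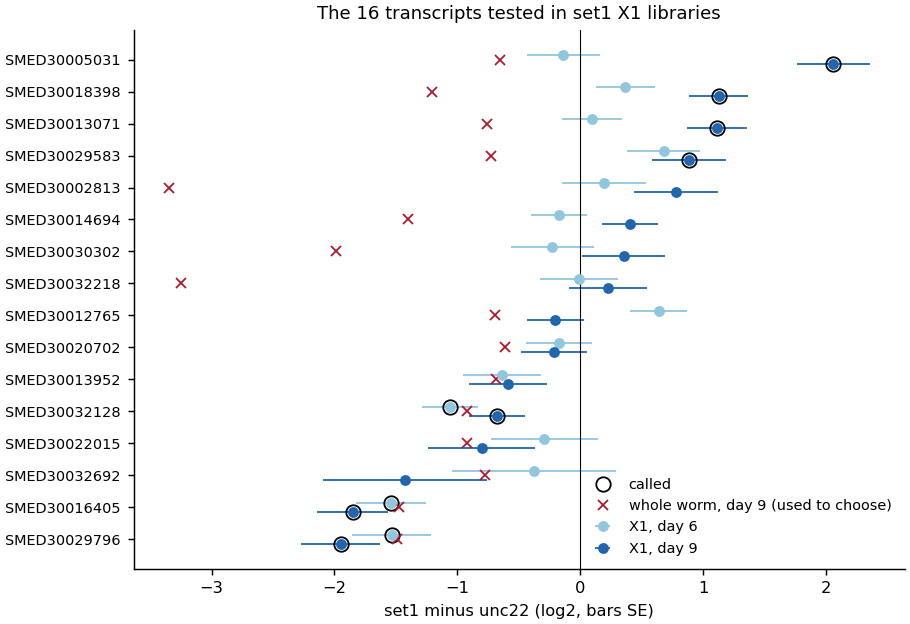
Log2 change after set1 knockdown (x axis, bars SE) in X1 cells at day 6 (light blue) and day 9 (dark blue) for the 16 transcripts tested there (y axis), with black rings for calls and red crosses for the whole-worm day 9 change used for the choice. At day 9, SMED30029796 and SMED30016405 fell in X1 cells, at -1.95 and -1.85, while SMED30005031 rose, at 2.06.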

How the data were processed

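The authors deposited RPKM values per transcript in 4 tables, by tissue and experiment. Their processing notes name CASAVA 1.8.2, Bowtie and edgeR without roles; the genome build and transcript set were not given in the sources used here. RPKM is scaled to a size for each library, and this size was not the number of counted reads. It was 0.704 to 1.15 times that number, so a level is not a plain share of the reads. Steps in the RPKM values gave transcript lengths and whole reads (all values whole within 0.01 read), used for depth and for voom. Columns of the set1 X1 table are spelled like the whole-worm titles, so they were used by RNAi and day, with their numbers set aside (libraries a to d).

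Changes were fitted with limma 3.58.1 in R 4.3.3 (lmFit, eBayes with trend) on log2(RPKM + 0.5), with 1 mean per group over the 16 libraries of a table, for transcripts averaging at least 1 RPKM. A fold on this scale understates that of low transcripts. Calls needed a Benjamini-Hochberg adjusted p under 0.05. The fit was tested on simulated data with independent libraries, which does not cover libraries that deviate together. Deviations of same-numbered mll1/2 day 12 whole-worm libraries had correlations of 0.17, 0.25, 0.17 and 0.41, so the replicate block is given there. For replicates 1 and 3, however, a library of another number correlated more. At day 9 the correlations ran from -0.41 to 0.37, so the numbers may not mark pairs.

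Alternatives were pseudocounts of 0.1 and 1, no filter, quantile and median scaling, library weights, only the 8 libraries compared, voom, a replicate block, and each library left out. Named transcripts were the 6 with the largest day 9 and day 6 falls in set1 whole worms, the 3 highest day 6 values, the 2 largest falls and rises at mll1/2 day 12 and at set1 X1 day 9, and the 2 most abundant. The members and these choices were made with earlier results of these data known. Without names or sequences for the IDs, gene lists and near-identical copies were not analysed here.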

Additional observations from a re-analysis of the deposited data

Results flagged for a closer look

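In 19 named transcripts and the summed level, 168 groups of 4 libraries were examined for a library far from the other 3, and 7 had one, where chance gives about 1 in 20. In the unc22(RNAi) day 12 whole-worm group of the mll1/2 experiment, replicate 1 was the highest for the sum of the 148 transcripts (1260 RPKM, others 1052 to 1084), for SMED30033240 (43.1 RPKM, others 19.1 to 23.1) and for SMED30018398 (56.8 RPKM, others 41.5 to 43.1). The size used to scale that library was 0.875 of its counted reads (others 0.985 to 1.06). SMED30020397 reached 5.61 RPKM in mll1/2(RNAi) replicate 3 at day 12, with the others at 1.17 to 1.5 RPKM. SMED30007460 was at 2.65 RPKM in mll1/2(RNAi) replicate 3 at day 9, with the others at 3.85 to 4.08 RPKM. In the day 9 controls of the set1 experiment SMED30010231 reached 7.30 RPKM in replicate 1 (others 5.80 to 6.03) and SMED30034570 was at 40.8 RPKM in replicate 4 (others 46.2 to 47.2).

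The X1 response of SMED30005031 to set1 knockdown differed between the days, by 2.19 (log2) in the test of the difference itself. The transcript passed the filter only through its high set1(RNAi) day 9 group (0.639 RPKM over the other 12 libraries), and without the filter the adjusted p by limma was 0.00583.

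In whole worms 3 transcripts had all 4 set1(RNAi) libraries above all 4 controls at day 6 and below all 4 at day 9. They were SMED30020397 (day 6 change 0.84), SMED30030302 (0.26) and SMED30014286 (0.16, named after its values were seen). This difference between days was not tested, because day 9 chose the transcripts.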

How the results depend on the processing

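Among the 148 transcripts, 68 to 80 were called lower at set1 day 6 in whole worms under all settings. The count called higher there was 3 with only the 8 libraries compared and 0 to 1 with a library left out. Same-numbered libraries did not deviate together on that day (correlations -0.01 to 0.08), and a block on the replicate number gave 75 lower and 1 higher. No paired analysis was possible for set1 X1 because its column numbers, spelled like whole-worm titles, could not be tied to the X1 samples.

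At mll1/2 day 12, weighting the libraries gave 14 lower and 29 higher, the 8 libraries alone 1 and 0, and median scaling 1 higher; leaving out a library gave 0 to 4 lower and 0 to 6 higher. The cause was not tested. In X1 cells, without the filter (63 transcripts tested), 5 were lower and 2 higher at day 6, and 7 lower and 9 higher at day 9. Library weights gave 2 higher at day 6 and 1 lower for day 9 against day 6, and leaving out a library gave 0 to 2 higher at day 6.

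Of 611 repeats for single named transcripts, 585 kept direction and side of the threshold, 12 lost and 8 gained a call, and 6 turned direction. SMED30032218 at set1 day 6 in whole worms went to 0.0034 with quantile normalisation, 0.019 with median scaling and -0.17 to 0.17 with a library left out. SMED30005031 at X1 day 6 ranged from -0.35 to 0.048 likewise.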
